A study of Mus musculus with 6 samples.

Results

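The megakaryocyte (MK) transcription factors followed here were *Gata1*, *Gata2*, *Zfpm1*, *Tal1*, *Gfi1b*, *Nfe2*, *Fli1*, *Runx1*, *Meis1* and *Mef2c*, 10 genes picked by symbol because they are the regulators usually named for MK formation. All 10 were among the 16579 genes listed, and all 10 were among the 12256 genes that passed edgeR's expression filter. RNA came from MKs that were isolated by FACS from mouse bone marrow, in 6 libraries. The 3 control libraries were labelled Becn1f/f, so both alleles of *Becn1* (Beclin 1, an autophagy gene) were floxed. The other 3 were labelled Becn1f/f;Pf4-iCre and carried, beside the same floxed alleles, a Cre recombinase driven by *Pf4* (platelet factor 4) regulatory sequence, which is active in the megakaryocytic lineage. The mice were 3 months old, no treatment is named, and the sex of the mice that gave these libraries is not given in the sources used here. The question was whether these regulators, their protein partners and their target genes differed with the Cre genotype.

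MK formation rests on a small network of DNA-binding proteins. GATA1 binds GATA sites together with its cofactor FOG1 (*Zfpm1*) and takes over from GATA2, which is high in progenitors. TAL1 sits in a complex with LMO2 and LDB1 at many of the same sites. FLI1 (an ETS factor) and RUNX1 with its partner CBFB switch on MK genes, NF-E2 (the p45 subunit is *Nfe2*, paired with a small MAF protein) is needed for platelet release, and GFI1B is a repressor that recruits LSD1 (*Kdm1a*) and CoREST (*Rcor1*). MEIS1 with PBX proteins and MEF2C act in MK progenitors and in MKs. GATA1, FOG1, TAL1 and GFI1B serve the erythroid lineage as well, which makes erythroid genes a second group of targets to read beside the MK genes.

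Total estimated counts lay between 16467560 and 17156728 per library. Libraries of a genotype correlated at Pearson 0.98 to 0.99 on the log2 scale, and each pair differed by more than sampling noise, so that no library appeared to be deposited more than once. *Becn1* FPKM (fragments per kilobase of transcript and per unit of library size, as scaled by the authors) were 84.5, 72.2 and 81.9 in Becn1f/f libraries 1, 2 and 3, and 68.7, 72.5 and 73.0 in the libraries labelled Becn1f/f;Pf4-iCre. The groups overlapped, and the second group stood at 90.3% of the first (log2 fold change -0.15, SE 0.12, Benjamini-Hochberg adjusted p = 0.936 by the quasi-likelihood test of edgeR), so the genotype is given as a label throughout. *Itga2b*, which encodes CD41, the surface marker the study used for MKs, was present at 45.8 to 62.0 FPKM. Other defining MK genes were low, with *Gp9*, the platelet glycoprotein, between 1.36 and 2.65 FPKM and *Ppbp*, a platelet chemokine, between 1.65 and 13.02. Granulocyte genes were far higher, as *S100a8*, a neutrophil protein, averaged 9482 FPKM and *Prg2*, an eosinophil granule protein, averaged 4944. Markers chosen for MKs therefore formed a minor share of the RNA, and in such bulk samples fewer cells of a type and less RNA per cell cannot be told apart.

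A positive log2 fold change below means a higher value in the libraries labelled Becn1f/f;Pf4-iCre. A differentially expressed gene (DEG) had a fold change of at least 1.5 and an unadjusted P under 0.05, the study's thresholds, here applied to edgeR's quasi-likelihood test. None of the 10 transcription factors was a DEG, where 2.3% of all tested genes were (1.36% higher and 0.938% lower). By the unadjusted P alone, 2 of the 10 passed and both were lower, beside 6.31% of all tested genes (2.39% lower and 3.92% higher). In CPM (counts scaled to library size), 3 of the 10 separated completely by genotype, of which 2 were lower and 1 was higher, beside 10.6% of all tested genes (5.18% lower and 5.42% higher). No member had an adjusted p under 0.05, which 0.0408% of tested genes had. The 10 log2 fold changes ran from -0.44 to 0.18, 7 of them below 0, with a median of -0.05 beside -0.02 over all tested genes. Summed over the 10 genes, the share of a library's counts was 0.0810%, 0.0760% and 0.0864% in Becn1f/f libraries 1, 2 and 3 and 0.0794%, 0.0842% and 0.0773% in the libraries labelled Becn1f/f;Pf4-iCre, and these ranges overlapped.

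**Figure D1:**
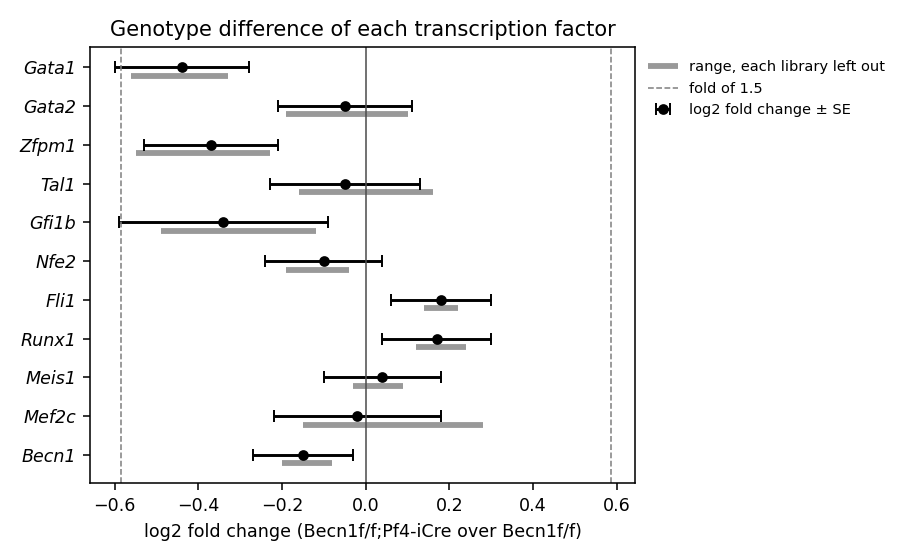
Log2 fold change of each of the 10 transcription factors and of *Becn1* (x axis, Becn1f/f;Pf4-iCre over Becn1f/f, black points with 1 SE from edgeR), with the range when each library was left out (grey bars) and the fold of 1.5 (dashed lines). *Gata1* and *Zfpm1* have the lowest values (-0.44 and -0.37), and no point lies past a dashed line.

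The upstream sequences of 3 members and of 3 erythroid target genes are shown because *Gata1*, the member with the smallest P, lacks the GATA motif in this window, *Gfi1b* and *Tal1* are the members that hold it, and the erythroid genes are DEGs that hold it. Promoter entries of RefSeq (GRCm38.p6) matched 8 of the 10 members by symbol, with 13 start sites in all; *Fli1* and *Nfe2* had none. The 250 bases before each start were searched on both strands for GATA with A or T before it and A or G after it, and capitals mark each match or its reverse complement. *Gata1* had no match in this window (chrX:7967911-7968160, minus strand), *Gfi1b* had 1 (chr2:28621983-28622232, minus strand), and *Tal1* had 1 before its first start (chr4:115056176-115056425, plus strand). *Ermap*, an erythroid membrane protein (chr4:119189996-119190245, minus strand), *Rhd*, a Rh blood group protein (chr4:134864286-134864535, plus strand), and *Alas2*, the rate-limiting enzyme of heme synthesis in red cells (chrX:150547167-150547416, plus strand), had 1 match each.
Gata1: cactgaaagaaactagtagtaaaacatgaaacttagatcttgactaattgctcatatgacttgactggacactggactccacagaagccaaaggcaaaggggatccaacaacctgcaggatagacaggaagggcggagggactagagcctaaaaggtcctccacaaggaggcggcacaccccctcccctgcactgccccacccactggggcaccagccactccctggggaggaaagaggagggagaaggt
Gfi1b: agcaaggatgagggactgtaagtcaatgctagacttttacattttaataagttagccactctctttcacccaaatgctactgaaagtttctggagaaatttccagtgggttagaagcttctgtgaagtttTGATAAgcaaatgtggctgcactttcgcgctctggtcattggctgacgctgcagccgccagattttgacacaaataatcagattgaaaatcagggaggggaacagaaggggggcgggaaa
Tal1: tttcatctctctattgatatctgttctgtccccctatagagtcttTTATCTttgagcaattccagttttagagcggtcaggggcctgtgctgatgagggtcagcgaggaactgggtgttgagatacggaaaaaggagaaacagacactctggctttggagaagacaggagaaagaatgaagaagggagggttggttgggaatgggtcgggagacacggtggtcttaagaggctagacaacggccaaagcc
Ermap: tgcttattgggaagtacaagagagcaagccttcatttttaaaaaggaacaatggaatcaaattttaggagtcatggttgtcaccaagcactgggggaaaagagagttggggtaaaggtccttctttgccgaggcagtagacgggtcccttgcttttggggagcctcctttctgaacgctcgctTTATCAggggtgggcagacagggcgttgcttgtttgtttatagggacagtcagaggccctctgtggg
Rhd: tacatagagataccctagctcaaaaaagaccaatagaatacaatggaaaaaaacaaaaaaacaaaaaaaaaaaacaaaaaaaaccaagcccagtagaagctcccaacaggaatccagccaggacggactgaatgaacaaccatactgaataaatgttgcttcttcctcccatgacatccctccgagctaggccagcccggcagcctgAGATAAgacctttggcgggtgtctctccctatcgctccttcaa
Alas2: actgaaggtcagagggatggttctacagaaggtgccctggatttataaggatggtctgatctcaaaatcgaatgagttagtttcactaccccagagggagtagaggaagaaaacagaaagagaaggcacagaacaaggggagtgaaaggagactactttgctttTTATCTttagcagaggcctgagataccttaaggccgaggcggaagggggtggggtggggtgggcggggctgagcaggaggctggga
A match was found in 2 of the 13 member windows (15.4%), in 10 of 24 windows of the MK and platelet target genes (41.7%), in 13 of 19 windows of the erythroid target genes (68.4%) and in 26.5% of all 32851 windows. The ETS word CCGGAA occurred in 2 of the 13 member windows (15.4%, 12% of all windows), before *Meis1* and before 1 of the *Runx1* starts. The RUNX word TGTGGT, or the same with C for the second T, occurred in 1 (7.69%, 18.6% of all windows), also before *Meis1*. A match is a description of the letters in this window.

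*Gata1* and its cofactor *Zfpm1* had the largest differences of the 10, and *Gata2* one of the smallest. *Gata1* (chromosome X, 7959260 to 7978071, minus strand, GRCm38) gave estimated counts of 349, 277 and 347 in Becn1f/f libraries 1, 2 and 3 and 231, 224 and 250 in the libraries labelled Becn1f/f;Pf4-iCre, or 13.4, 10.1 and 12.7 FPKM against 8.42, 8.64 and 9.43. Every control library lay above every library of the other genotype, and Becn1f/f library 2 was the control nearest to them. The log2 fold change was -0.44 (SE 0.16, P = 0.0175, adjusted p = 0.6 by edgeR's quasi-likelihood test), a level of 73.6% of control, and the exact two-sided permutation test gave p = 0.1, the smallest that 3 against 3 libraries can give. Without Becn1f/f library 1 the log2 fold change was -0.33 and without Becn1f/f;Pf4-iCre library 2 it was -0.41, and in both cases the unadjusted P was no longer under 0.05, while the other 4 omissions kept it there. With offsets for GC content and transcript length it was -0.36, and P was again above 0.05.

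*Zfpm1* (chromosome 8, 122282141 to 122337251, plus strand), the cofactor through which GATA1 acts in both lineages, stood at 14.1, 14.2 and 15.6 FPKM in Becn1f/f libraries 1, 2 and 3 and 13.3, 11.6 and 9.43 in the libraries labelled Becn1f/f;Pf4-iCre. Groups did not overlap, but the gap was narrow, at 45.4 CPM in the lowest control against 45.25 CPM in the highest library of the other genotype, and the raw counts (724, 804 and 899 against 755, 586 and 497) overlapped. Its log2 fold change was -0.37 (SE 0.16, P = 0.0427, adjusted p = 0.772 by edgeR), or 77.3% of control, with an exact permutation p of 0.1. Only the omission of Becn1f/f library 1 or of Becn1f/f;Pf4-iCre library 1 kept P under 0.05, and without Becn1f/f;Pf4-iCre library 3 the value was -0.23. *Zfpm1* has the highest GC content of the 10 (66.8% of its longest transcript, against a median of 49.7% over tested genes), and with GC and length offsets its value was -0.22 and P was above 0.05. Over all tested genes, Spearman's correlation between GC content and log2 fold change was -0.34, a description only, since genes are not independent.

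*Gata2* (chromosome 6, 88193891 to 88207032, plus strand), the progenitor and mast cell GATA factor, reached 62.4, 51.7 and 78.7 FPKM in Becn1f/f libraries 1, 2 and 3 and 64.0, 66.7 and 53.3 in the libraries labelled Becn1f/f;Pf4-iCre. Both the highest and the lowest library were controls, and the groups overlapped. The log2 fold change was -0.05 (SE 0.16, adjusted p = 0.988 by edgeR) and turned to 0.05 with GC and length offsets. *Gata2* made up 81.9% to 88.3% of the summed FPKM of *Gata1*, *Gata2* and *Gata3*, and *Gata1* made up 11.4% to 17.6%.

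**Figure D2:**
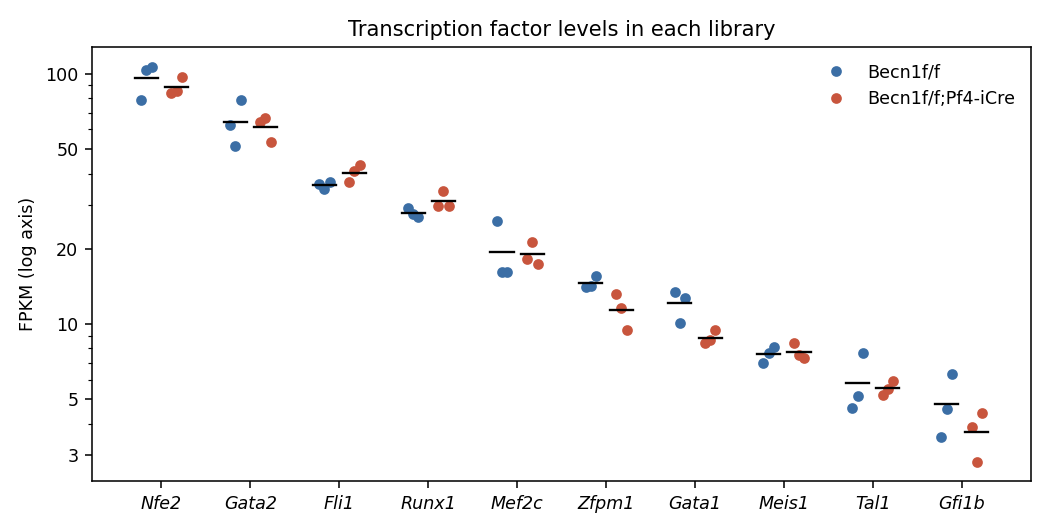
FPKM of each transcription factor (y axis, log scale) in each library, 3 labelled Becn1f/f (blue) and 3 labelled Becn1f/f;Pf4-iCre (red), with horizontal lines at the group means. Levels fall from *Nfe2* (mean 92.5 FPKM) to *Gfi1b* (4.26), and in FPKM the groups separate for *Gata1* and *Zfpm1* (lower) and for *Fli1* and *Runx1* (higher). In CPM *Runx1* overlaps and 3 of the 10 separate, beside 10.6% of all tested genes. The share of all genes that separate in FPKM was not computed.

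*Tal1* and *Gfi1b*, both shared by the erythroid and the megakaryocytic lineage, were the least abundant members. *Tal1* (chromosome 4, 115056426 to 115071755, plus strand) stood at 4.63, 5.17 and 7.65 FPKM in Becn1f/f libraries 1, 2 and 3 and at 5.19, 5.52 and 5.92 in the libraries labelled Becn1f/f;Pf4-iCre. The second group lay wholly inside the range of the controls, with a log2 fold change of -0.05 (SE 0.18, adjusted p = 0.988 by edgeR). Leaving out Becn1f/f library 3, the highest, turned it to 0.16. *Gfi1b* (chromosome 2, 28609450 to 28621982, minus strand) stood at 3.54, 4.56 and 6.32 FPKM in controls and 3.88, 2.82 and 4.43 in the others. Its groups overlapped, the log2 fold change was -0.34 (SE 0.25, adjusted p = 0.911 by edgeR), and it ranged from -0.49 to -0.12 over the omissions of 1 library. *Gfi1b* had 66 to 155 counts per library, the fewest of any member, and the widest SE of the 10.

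*Nfe2* (chromosome 15, 103248212 to 103258403, minus strand), the p45 subunit of NF-E2, was the most abundant member. Its FPKM were 78.4, 103 and 107 in Becn1f/f libraries 1, 2 and 3 and 84.0, 85.3 and 97.3 in the libraries labelled Becn1f/f;Pf4-iCre. The controls spanned the other group on both sides, and the log2 fold change was -0.10 (SE 0.14, adjusted p = 0.973 by edgeR). Within the summed FPKM of *Nfe2*, *Nfe2l1* and *Nfe2l2*, a family set chosen after the values were seen, *Nfe2* made up 41.3% to 55.7%, with overlapping groups.

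*Fli1* (chromosome 9, 32422204 to 32542861, minus strand), the ETS factor that favors the MK over the erythroid fate, was at 36.2, 34.7 and 36.9 FPKM in Becn1f/f libraries 1, 2 and 3 and at 37.0, 40.8 and 43.2 in the libraries labelled Becn1f/f;Pf4-iCre. It was the only member whose CPM separated upward, with Becn1f/f;Pf4-iCre library 1 just above the highest control. The difference was small and did not pass the test, with a log2 fold change of 0.18 (SE 0.12, P = 0.165, adjusted p = 0.901 by edgeR), or 113% of control, and an exact permutation p of 0.1. *Runx1* (chromosome 16, 92601466 to 92826149, minus strand), whose loss lowers platelet number, stood at 29.1, 27.6 and 26.9 FPKM in controls and 29.8, 34.0 and 29.6 in the others. Its FPKM did not overlap while its CPM did, and the log2 fold change was 0.17 (SE 0.13, adjusted p = 0.911 by edgeR). *Fli1* and *Runx1* have transcripts of low GC content (44.5% and 46.4%), and with GC and length offsets their values were 0.15 and 0.11. Annotated genes that are not among those listed overlap *Zfpm1*, *Fli1*, *Runx1* and *Meis1*, some on the same and some on the opposite strand, and whether the counting used strand is not given in the sources used here.

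*Meis1* (chromosome 11, 18879817 to 19018985, minus strand), a homeobox partner of PBX proteins, stood at 7.0, 7.65 and 8.12 FPKM in Becn1f/f libraries 1, 2 and 3 and 8.39, 7.51 and 7.34 in the libraries labelled Becn1f/f;Pf4-iCre. The groups overlapped, and the log2 fold change was 0.04 (SE 0.14, adjusted p = 0.988 by edgeR) and -0.07 with GC and length offsets. *Mef2c* (chromosome 13, 83504034 to 83667080, plus strand) stood at 25.9, 16.2 and 16.2 FPKM in controls and 18.3, 21.2 and 17.4 in the others. Becn1f/f library 1 was well above the other 5, and the log2 fold change of -0.02 (SE 0.20, adjusted p = 0.997 by edgeR) became 0.28 without it, still with an unadjusted P above 0.05. That library also had the highest summed share of mast cell, basophil and eosinophil markers (1.14%, against 0.485% to 0.733% in the other 5). Its share of MK and platelet target genes was highest too (0.488%, against 0.248% to 0.437%). In every library most counts of the MK and platelet list came from *Thbs1*, which macrophages also make. *Thbs1* had 71312 counts in Becn1f/f library 1 and 34360 to 65928 in the other 5. The part of these lists in the *Mef2c* value was not tested.

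Ordered by mean FPKM over the 6 libraries, the members ran *Nfe2* (92.5), *Gata2* (62.8), *Fli1* (38.1), *Runx1* (29.5), *Mef2c* (19.2), *Zfpm1* (13.01), *Gata1* (10.5), *Meis1* (7.67), *Tal1* (5.68) and *Gfi1b* (4.26). Ranges of neighbors overlapped for *Nfe2* and *Gata2*, *Zfpm1* and *Gata1*, *Meis1* and *Tal1*, and *Tal1* and *Gfi1b*, so that these pairs are not separated by the spread over libraries. Within a library, each factor still exceeded the next in all 6 libraries, except that *Zfpm1* exceeded *Gata1* in 5 of 6. Becn1f/f library 3 held the highest CPM of 5 members (*Gata2*, *Zfpm1*, *Tal1*, *Gfi1b* and *Nfe2*) and Becn1f/f;Pf4-iCre library 1 the lowest of none.

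Ratios of paired factors were compared within libraries, as 4 comparisons. *Gata1* to *Gata2*, the pair that exchanges places during differentiation, had a log2 ratio of FPKM of -2.22, -2.35 and -2.63 in Becn1f/f libraries 1, 2 and 3 and of -2.93, -2.95 and -2.50 in the libraries labelled Becn1f/f;Pf4-iCre. The means were -2.40 ± 0.21 and -2.79 ± 0.25 (SD, n = 3 each), the groups overlapped, and the exact permutation test gave p = 0.2 (adjusted over the 4 ratios, 0.4). *Gata1* to *Spi1*, the myeloid ETS factor PU.1, was -4.34 ± 0.30 against -4.64 ± 0.15 (SD, n = 3 each, exact permutation p = 0.3, adjusted 0.4), also with overlap.

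*Fli1* to *Klf1*, the erythroid factor that opposes FLI1, had log2 ratios of 5.25, 4.49 and 4.61 in controls and 5.62, 6.78 and 5.54 in the other genotype. It was the one ratio without overlap, higher by 1.2 in the libraries labelled Becn1f/f;Pf4-iCre (exact permutation p = 0.1, the smallest the design allows, adjusted 0.4). *Klf1* itself was at 0.37 to 1.55 FPKM, with 18, 31 and 30 counts in controls and 15, 7 and 18 in the others. The highest ratio, 6.78, came from the library with 7 counts. Taken alone, *Klf1* had a log2 fold change of -0.94 and *Fli1* of 0.18, so the ratio largely repeats the *Klf1* value. *Gfi1b* to *Gfi1*, its myeloid paralog, was -1.15 ± 0.28 against -1.04 ± 0.35 (SD, n = 3 each, exact permutation p = 0.7, adjusted 0.7), and *Gfi1* made up 60.9% to 73.1% of the pair.

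**Figure D3:**
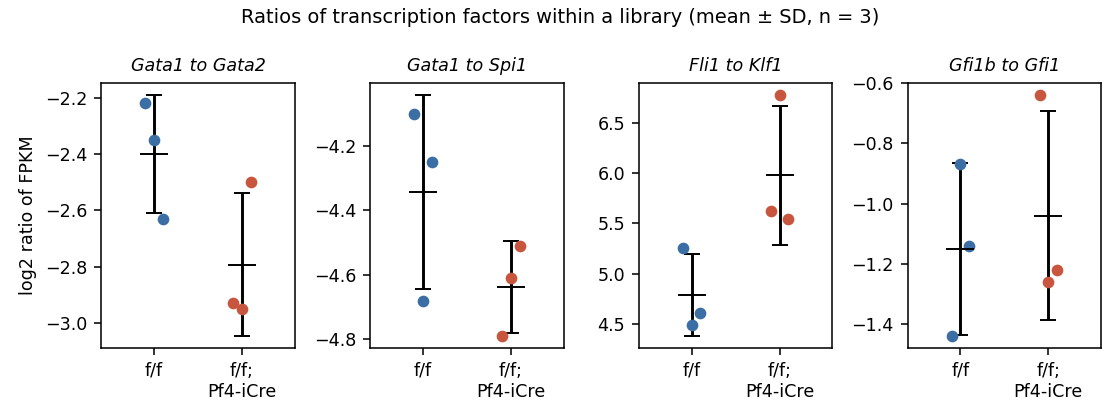
Log2 ratio of FPKM within each library (y axis, a separate scale for each panel) for 4 pairs of factors in Becn1f/f (f/f, blue) and Becn1f/f;Pf4-iCre (red) libraries, with mean ± SD (n = 3). The 2 groups separate for *Fli1* to *Klf1* and overlap for the other 3 pairs.

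The 17 listed partners of the factors were all tested and none was a DEG; 7 were higher and 10 lower, with a median log2 fold change of -0.02, that of all tested genes. *Cbfb*, the subunit that stabilizes RUNX1 on DNA, and *Lmo2*, the bridge between TAL1 and GATA1, were the 2 most abundant partners. *Cbfb* stood at 81.5 ± 3.23 FPKM in controls and 95.5 ± 14.9 in the others (SD, n = 3 each; log2 fold change 0.24, SE 0.14, adjusted p = 0.884 by edgeR), and *Lmo2* at 91.1 ± 8.0 and 84.0 ± 4.84 (-0.09, SE 0.13, adjusted p = 0.973 by edgeR). Both overlapped between genotypes.

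An unadjusted P under 0.05 was found for 2 of the 17 partners, both higher and neither with an adjusted p under 0.05. Over all tested genes, 3.92% were higher at that P. *Bach1*, which competes for the small MAF proteins, was at 39.9, 30.5 and 26.5 FPKM in Becn1f/f libraries 1, 2 and 3 and 45.9, 47.4 and 36.5 in the libraries labelled Becn1f/f;Pf4-iCre (log2 fold change 0.43, SE 0.18, adjusted p = 0.741 by edgeR). *Pbx3*, a partner of MEIS1, was at 3.33, 4.14 and 2.77 FPKM and 4.41, 5.06 and 4.17 (0.42, SE 0.19, adjusted p = 0.791 by edgeR). *Bach1* overlapped between genotypes and *Pbx3* did not. Neither kept P under 0.05 with GC and length offsets, and *Bach1* kept it only without Becn1f/f library 1 (0.65, a DEG) or Becn1f/f;Pf4-iCre library 3 (0.55), and *Pbx3* only without Becn1f/f library 2 (0.58). The small MAF partners of NF-E2 (*Mafg*, *Mafk* and *Maff*) summed to 144 to 192 FPKM in controls and 134 to 176 in the others.

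Related hematopoietic factors numbered 24 tested, 12 higher and 12 lower, their median being -0.01 on the log2 scale, and 1 was a DEG. This was *Klf1*, the master regulator of erythroid genes, with 0.95, 1.55 and 1.51 FPKM in Becn1f/f libraries 1, 2 and 3 and 0.75, 0.37 and 0.93 in the libraries labelled Becn1f/f;Pf4-iCre. It fell by 0.94 on the log2 scale (SE 0.38, adjusted p = 0.711 by edgeR), without overlap, but its level was close to 1 FPKM and P was no longer under 0.05 without Becn1f/f library 2 or 3 or Becn1f/f;Pf4-iCre library 2 (-0.82, -0.87 and -0.64). It was not a DEG by DESeq2. *Spi1* and *Ikzf1*, the most abundant of the list, averaged 232 and 113 FPKM with log2 fold changes of -0.13 and 0.12.

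*Mef2a*, a paralog of *Mef2c*, and *Nfe2l2*, a paralog of *Nfe2* that directs the antioxidant response, had unadjusted P under 0.05 and were higher. *Mef2a* stood at 35.2, 29.3 and 27.4 FPKM in controls and 37.1, 50.6 and 39.0 in the others, without overlap (log2 fold change 0.47, SE 0.16, adjusted p = 0.552 by edgeR). *Nfe2l2* stood at 74.3, 56.0 and 52.7 FPKM and 91.8, 80.7 and 68.8, with overlap (0.41, SE 0.18, adjusted p = 0.755 by edgeR). Both fell short of a fold of 1.5, but without Becn1f/f library 1, the highest control for both, they passed it and were DEGs (0.62 and 0.61). *Mef2a* lost its P under 0.05 without Becn1f/f library 3 or Becn1f/f;Pf4-iCre library 2, and *Nfe2l2* kept it only without Becn1f/f library 1 or Becn1f/f;Pf4-iCre library 3. Of the summed FPKM of *Mef2a*, *Mef2c* and *Mef2d*, *Mef2a* made up 26.3% to 27.7% in controls and 29.3% to 38.0% in the others, and *Mef2c* made up 14.4% to 19.3%.

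The MK and platelet target genes were evenly divided, with 14 of 28 tested genes higher, 14 lower and a median log2 fold change of 0.00 (range -1.01 to 0.38). The median moved to 0.12 without Becn1f/f library 1 and to -0.21 without Becn1f/f;Pf4-iCre library 1, the library of each genotype with the highest share of these genes. In every library most of that share came from *Thbs1*. The single DEG was *Pf4*, which fell from 13.95, 24.10 and 15.5 FPKM in Becn1f/f libraries 1, 2 and 3 to 10.4, 8.13 and 7.88 in the libraries labelled Becn1f/f;Pf4-iCre. The groups did not overlap, and the log2 fold change of -1.01 (SE 0.29, adjusted p = 0.423 by edgeR) kept P under 0.05 in all 6 omissions, between -1.21 and -0.71. *Pf4* is also the gene whose regulatory sequence drives the Cre transgene, which only these libraries carry. *P2ry1*, a platelet ADP receptor, was higher without overlap (9.17 ± 0.561 FPKM in controls, 11.7 ± 2.45 in the others, SD, n = 3 each; log2 fold change 0.37, SE 0.15, adjusted p = 0.741 by edgeR), and its unadjusted P was no longer under 0.05 without Becn1f/f library 2 or Becn1f/f;Pf4-iCre library 2 (0.35 and 0.21).

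*Itga2b*, the best expressed integrin of the list, had a log2 fold change of -0.15 (SE 0.14, adjusted p = 0.95 by edgeR). *Thbs1*, a matrix protein of platelet granules that macrophages also make, was the most abundant gene of the list. It spread from 370 to 783 FPKM, with Becn1f/f library 1 and Becn1f/f;Pf4-iCre library 1 highest, and its log2 fold change was 0.03 (SE 0.31, adjusted p = 0.997 by edgeR).

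**Figure D4:**
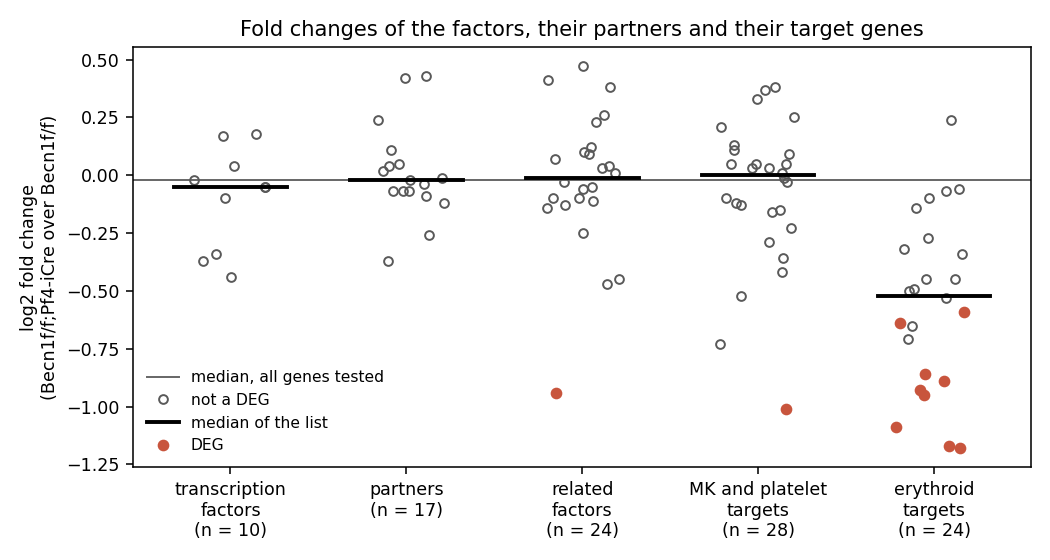
Log2 fold change of each tested gene (y axis, Becn1f/f;Pf4-iCre over Becn1f/f) in 5 lists, namely the 10 transcription factors, 17 partners, 24 related factors, 28 MK and platelet targets and 24 erythroid targets, with DEGs as filled red points, list medians as thick lines and the median of all tested genes (-0.02) as a thin line. The first 4 medians lie between -0.05 and 0.00 and the erythroid median lies at -0.52.

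The erythroid target genes were lower. Of 24 tested, 23 had a log2 fold change below 0 and 1 above it, and the median was -0.52 beside -0.02 over all tested genes. At an unadjusted P under 0.05, 14 were lower, beside 2.39% of all tested genes. DEGs numbered 9, all of them lower, beside 0.938% of all tested genes. In CPM, genotypes did not overlap for 12 lower genes and 1 higher gene (*Tspan33*, chosen after its value was seen), beside 5.18% and 5.42% of all tested genes. The list was chosen with earlier results of these data known, so no test was made over it. The median was -0.46 with GC and length offsets, and 4 to 11 genes of the list were DEGs when each library was left out, the fewest without Becn1f/f;Pf4-iCre library 1 (*Slc4a1*, *Ermap*, *Rhd* and *Ank1*) and the most without Becn1f/f;Pf4-iCre library 2. The list median ranged from -0.65 to -0.39 over these omissions. No gene of the list had an adjusted p under 0.05 by edgeR with the expression filter and genotype only. With the replicate number added as a block, *Slc4a1* had an adjusted p of 0.0374 by edgeR.

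*Slc4a1*, the band 3 anion exchanger of the red cell membrane, was the clearest of them. It stood at 7.88, 6.05 and 8.07 FPKM in Becn1f/f libraries 1, 2 and 3 and 2.21, 3.93 and 3.51 in the libraries labelled Becn1f/f;Pf4-iCre, so that each control was above every other library. It fell by 1.18 on the log2 scale (SE 0.20, adjusted p = 0.0892 by edgeR) and its adjusted p was under 0.05 by DESeq2. *Rhd* fell by 1.17, *Ank1*, the ankyrin that ties band 3 to the cytoskeleton, by 1.09 and *Ermap* by 0.95 on the log2 scale, all without overlap and with P under 0.05 in all 6 omissions (adjusted p = 0.455, 0.392 and 0.455 by edgeR). Their levels were low, at 0.39 to 1.90 FPKM for *Rhd* and 0.20 to 0.98 for *Ank1*.

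*Rhag*, the Rh-associated glycoprotein, *Kel*, the Kell antigen, and *Trim10*, a RING finger protein of erythroid cells, fell by 0.93, 0.89 and 0.86 (adjusted p = 0.747, 0.592 and 0.56 by edgeR), each without overlap in CPM, although the FPKM of *Kel* overlapped. Levels were again low, at 0.17 to 1.02 FPKM for *Rhag*, 0.51 to 1.61 for *Kel* and 0.53 to 1.74 for *Trim10*. *Rhag* had 27, 24 and 23 counts in controls and 6, 12 and 20 in the others. It kept P under 0.05 in only 2 of the 6 omissions and was not a DEG by DESeq2. *Kel* and *Trim10* each kept it in 4 of the 6. *Alas2* stood at 11.9, 7.85 and 9.29 FPKM in controls and 3.97, 8.27 and 6.39 in the others. It fell by 0.64 (SE 0.25, adjusted p = 0.688 by edgeR) although the groups overlapped, and with GC and length offsets its P was above 0.05. Windows of the erythroid genes with an unadjusted P under 0.05 include the *Ermap*, *Rhd* and *Alas2* sequences shown above. They held the GATA motif in 9 of 11 cases (81.8%), beside 68.4% of the windows of the whole list, which contains them, and 26.5% of all windows. A gene can have more than 1 window, and of the 9 erythroid DEGs 7 had a promoter entry. These genes were picked by their P in these data, so the shares are a description only and their difference was not tested.

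Globin genes had the highest FPKM of the list. *Hba-a1* (alpha globin) was at 887, 763 and 566 FPKM in Becn1f/f libraries 1, 2 and 3 and 419, 571 and 492 in the libraries labelled Becn1f/f;Pf4-iCre (log2 fold change -0.59, SE 0.17, adjusted p = 0.442 by edgeR). Its CPM did not overlap, although FPKM of Becn1f/f library 3 was just below that of Becn1f/f;Pf4-iCre library 2. *Hba-a2*, *Hbb-bs* and *Hbb-bt* had log2 fold changes of -0.53, -0.49 and -0.45 (adjusted p = 0.592, 0.741 and 0.741 by edgeR), with an unadjusted P under 0.05 but short of the fold threshold. *Hba-a1* and *Hba-a2*, like *Hbb-bs* and *Hbb-bt*, are near-identical copies, so that the division of reads within each pair is uncertain. *Sptb*, the beta spectrin of red cells, was at -0.45 (adjusted p = 0.6 by edgeR), with an unadjusted P under 0.05 and without overlap. The summed share of the list was 0.115%, 0.0999% and 0.0881% of counts in Becn1f/f libraries 1, 2 and 3 and 0.0650%, 0.0828% and 0.0765% in the others, so that every control was above every library of the other genotype.

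Markers of other cells were read beside these values. Over all tested genes, 2.39% were lower at an unadjusted P under 0.05 and 5.18% were lower without overlap in CPM. DEGs made up 0.938% (lower) and 1.36% (higher) of all tested genes. Neutrophil genes took 1.71%, 1.28% and 1.51% of counts in Becn1f/f libraries 1, 2 and 3 and 0.95%, 1.02% and 1.31% in the libraries labelled Becn1f/f;Pf4-iCre, shares that overlapped. Of 16 tested neutrophil genes 15 were lower, 6 of them at an unadjusted P under 0.05 and 4 without overlap in CPM, with a median of -0.42 on the log2 scale and 1 DEG, lower. Mast cells, basophils and eosinophils also express GATA factors, and their markers had 11 of 15 tested genes lower, a median of -0.26, no DEG, and overlapping shares of 0.609% to 1.14% in controls and 0.485% to 0.733% in the others. B lineage markers had 13 of 14 lower with a median of -0.22, 1 DEG and overlapping shares of 0.0222% to 0.0382% and 0.0215% to 0.0286%. Macrophage markers went the other way, with 12 of 13 tested genes higher, a median of 0.32, 3 DEGs, all higher, and shares of 0.0849% to 0.0894% in controls and 0.0898% to 0.107% in the others, without overlap.

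Stem and progenitor markers had 7 higher and 7 lower with a median of 0.02 and 1 DEG, higher, and shares of 0.0476% to 0.0541% and 0.0513% to 0.0577%. Endothelial and stromal markers (9 tested, median 0.06, shares of 0.0130% to 0.0152% and 0.0119% to 0.0139%) and T and NK cell markers (9 tested, median -0.21, shares of 0.00642% to 0.00788% and 0.00518% to 0.00671%) were rare, with 1 DEG in the former, lower, and none in the latter. No marker on these lists that was in the deposited table was at 0 in all 6 libraries. What part these lists have in the values of *Gata1*, *Zfpm1*, *Klf1* and the erythroid genes was not tested.

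**Figure D5:**
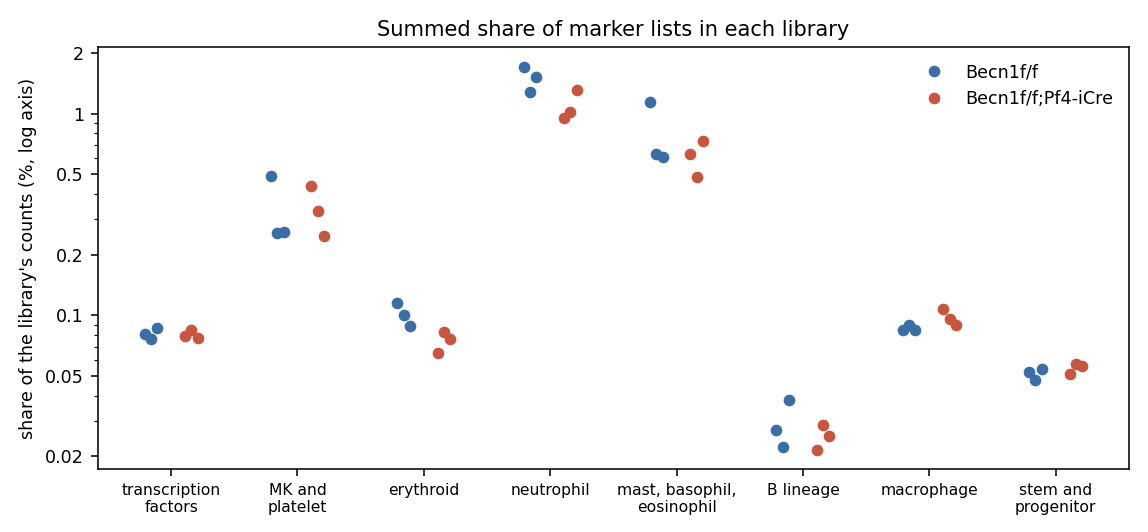
Summed share of each library's estimated counts (y axis, percent, log scale) taken by 8 gene lists, with Becn1f/f libraries in blue and libraries labelled Becn1f/f;Pf4-iCre in red. In every library most of the MK and platelet share is *Thbs1*. The 10 transcription factors overlap between genotypes at 0.0760% to 0.0864%, the erythroid shares of the second group all lie below the controls, and the macrophage shares lie just above them.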

How the data were processed

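Sample titles gave the genotype and a replicate number and do not say that replicates were separate animals, so that P values measure the spread between these libraries, which may be technical. The authors filtered DNBSEQ reads and mapped them with HISAT. The submitters' processing notes also name Bowtie2 and the builds GRCm39 and mm39, with no role. The counting tool, annotation and strand setting are not given in the sources used here. The deposited estimated counts were not normalized, and in each library 10.3% to 11.3% of them had a fractional part. The deposited FPKM values are the authors' scaling for library size and transcript length. Not used were 16 other columns with values of single samples, 4 of them from 1 library that matches no sample here, and 8 columns of group means.

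After rounding, counts went into edgeR 4.0.16 under R 4.3.3 (expression filter, TMM, quasi-likelihood test, genotype only, Benjamini-Hochberg adjustment), over 12256 genes. The study used DESeq2, here an alternative (1.42.0). SEs are the size of the log2 fold change divided by the root of F. Single values were compared by exact two-sided permutation. Each precision statement rests on 3 libraries per genotype. FPKM alternatives used limma 3.58.1. Other alternatives were DESeq2's size factors, upper-quartile factors, other filters, the replicate block, offsets for GC content and length (11953 of 12256 genes matched by symbol) and each library left out. Gene positions are from GENCODE M21 on GRCm38 and promoters from RefSeq, neither from the deposited table.

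The members and the gene lists were chosen with earlier results of these data known. Genes named singly were the 10 members and *Becn1*, in the partner, related, MK target and erythroid lists each gene with an unadjusted P under 0.05 and the 2 with the highest mean FPKM, the genes of the 4 ratios, and at most 2 abundant genes from each list of other cells. Of the genes under this rule, 1 is left unreported. *Gp9*, *Ppbp* and the further members of each gene family were named after their values were seen. The edgeR step was tested on simulated counts with 200 changed genes.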

Additional observations from a re-analysis of the deposited data

How the results depend on the processing

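In all 17 other fits, none of the 10 transcription factors was a DEG or had an adjusted p under 0.05. Of 884 recomputed values, 741 kept their direction and side of the threshold, or moved by less than their spread. The number of transcription factors with P under 0.05 (2) was 0 with GC and length offsets, 1 with those offsets and the replicate block, and 0 to 2 when each library was left out. Related factors called as DEGs (1) numbered 0 by DESeq2, with at least 10 counts in every sample, with log2(FPKM + 1) with or without a mean FPKM of at least 1, and at an adjusted p under 0.05, and 0 to 3 with each library left out. MK and platelet targets (1) numbered 2 with the replicate block, with or without the offsets, 0 at an adjusted p under 0.05, and 1 to 3 with each library left out. Erythroid targets (9) numbered 3 with log2(FPKM + 1), with or without the filter, 0 at an adjusted p under 0.05, and 4 to 11 with each library left out. Partners (0) numbered 0 to 1. The values close to 0 changed sign. With GC and length offsets, without and with the replicate block, *Gata2* was 0.05 and 0.06, *Tal1* 0.0048 and 0.01, and *Meis1* -0.07 and -0.08. *Thbs1* was -0.0009 with the offsets and *Mef2c* 0.02 with the replicate block. With each library left out, *Gata2* ranged from -0.19 to 0.10, *Tal1* from -0.16 to 0.16, *Meis1* from -0.03 to 0.09, *Mef2c* from -0.15 to 0.28, *Thbs1* from -0.25 to 0.51 and the *Gfi1b* to *Gfi1* difference from -0.09 to 0.25. Over all genes, DEGs numbered 282, against 129 and 137 with log2(FPKM + 1), without and with the filter. The fold on that scale is smaller for low genes by construction; the cause of the other changes was not tested. *Slc4a1* was the one gene of the erythroid list with an adjusted p under 0.05 by DESeq2, without the filter and with the replicate block. Over all tested genes, same-numbered libraries deviated together at correlations of 0.068, -0.279 and 0.201, so that the numbers were not taken to pair libraries. The share of MK and platelet target genes, mostly *Thbs1*, was still highest in library 1 of both genotypes. With the replicate block, DEGs over all genes numbered 296. Genes with an adjusted p under 0.05 by edgeR numbered 19 with the block and 5 without it. *Gfi1b* had the fewest counts of the transcription factors (66 to 155 per library); how far depth limits its value was not tested.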

Other observations

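Within the erythroid list, the membrane and blood group genes that were DEGs (*Slc4a1*, *Rhd*, *Ank1*, *Ermap*, *Rhag* and *Kel*) had log2 fold changes of -1.18 to -0.89, while *Epor*, the erythropoietin receptor, and *Tfrc*, the transferrin receptor, which other dividing cells also carry, were at -0.06 (SE 0.36) and -0.14 (SE 0.16), both with overlapping genotypes. Both were picked with their values in view, and the difference between these genes was not tested.

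Among the ETS factors, shares were taken of the summed FPKM of *Fli1*, *Erg*, *Ets1*, *Etv6*, *Gabpa* and *Spi1*. *Fli1* made up 8.79% to 9.40% in Becn1f/f libraries and 9.97% to 11.8% in the libraries labelled Becn1f/f;Pf4-iCre, without overlap. *Spi1*, with a log2 fold change of -0.13, made up 56.5% to 65.8% of that sum. Of all the family shares computed, only those of *Mef2a* (higher) and *Nfe2l1* (lower) also separated. No background over all genes was computed for such shares. *Lyl1*, the paralog of *Tal1*, made up 90.4% to 92.9% of the summed FPKM of the pair, and *Runx1* 37.1% to 41.6% of the summed FPKM of the 3 RUNX genes.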
